A study of Mus musculus with 10 samples.

Results

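Lyz1 and Lyz2 are the 2 mouse genes for conventional lysozyme, and they lie side by side on chromosome 10. They were followed in whole ear skin of 10 mice, as 2 of the 41388 genes in each library. Both were chosen by their measured difference between the groups, since earlier results of these data had placed them among the 3 genes called. Their group differences are therefore a description, with no test. Libraries were made from C57Bl/6 ears, 1 for each of the mice that the series text counts. Nothing else says that they are separate animals, so p-values measure the spread between these samples. The 4 Littermate mice carry the genotype label WT. The 6 Experimental mice carry the label NaV1.8+ Jak1F/F, while the series title and design name NaV1.8+ Il4raF/F, so which floxed gene they carry is not settled here. Both groups received MC903 (calipotriol, a vitamin D analogue that inflames the skin). The design text states the dose, 1 nM on the skin each day for 12 days, beside the littermates, and there is no untreated group. The sources used here give no age, sex, litter or batch. NaV1.8 is a voltage-gated sodium channel found in sensory neurons, whose cell bodies lie outside the ear. The labels do not name the recombinase or say in which cells a deletion took place.

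Lysozyme cuts the sugar backbone of peptidoglycan, the wall polymer of bacteria. In the mouse an ancestral gene was duplicated: Lyz2 (lysozyme M) is the form of macrophages, monocytes and neutrophils, and Lyz1 (lysozyme P) is best known as the form of Paneth cells in the small intestine. The cut releases wall fragments that are sensed by Nod1, Nod2 and Toll-like receptors. Whole skin mixes many cell types, so fewer cells of a type and less RNA per cell cannot be told apart.

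The 2 genes are so alike that their sequences bear on every count of them. In the files Lyz2 (ENSMUSG00000069516) spans chr10:117277334-117282274 and Lyz1 (ENSMUSG00000069515) spans chr10:117287796-117292868 of mm10, both on the minus strand with 4 exons and 5521 bases between them. Their exonic lengths are 1266 and 1264 bases. The first 300 of their 447 coding bases, from GENCODE M21 transcripts on GRCm38, are shown because by these letters reads of one gene can be told from reads of the other. Capitals mark the 20 bases that differ there, of 22 in the whole coding sequence.
Lyz1: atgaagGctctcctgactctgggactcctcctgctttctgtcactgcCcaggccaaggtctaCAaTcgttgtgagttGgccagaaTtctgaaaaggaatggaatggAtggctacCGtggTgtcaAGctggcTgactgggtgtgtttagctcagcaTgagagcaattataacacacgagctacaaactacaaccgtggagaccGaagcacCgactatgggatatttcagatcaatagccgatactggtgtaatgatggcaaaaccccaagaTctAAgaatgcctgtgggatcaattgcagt
Lyz2: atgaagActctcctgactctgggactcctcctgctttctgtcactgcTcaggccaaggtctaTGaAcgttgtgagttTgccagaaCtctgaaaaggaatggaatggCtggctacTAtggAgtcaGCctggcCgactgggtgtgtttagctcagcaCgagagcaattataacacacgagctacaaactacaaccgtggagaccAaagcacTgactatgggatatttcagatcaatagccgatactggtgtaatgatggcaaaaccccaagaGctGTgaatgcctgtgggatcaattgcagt
The coding sequences were 95.1% identical, and the 22 differing bases lay in 18 codons. The longest stretch without a difference ran for 118 bases, from position 276 to 393 counted from the start codon. A read of 50 bases from inside that stretch carries no mark of its gene. Of the 398 windows of 50 bases within the Lyz1 coding sequence, 80 (20.1%) were identical to a stretch of the Lyz2 transcript. In the 3' UTR it was 93 of 737 windows (12.6%) for Lyz1 and 93 of 741 (12.5%) for Lyz2. Over the whole transcript, 195 of 1214 windows of Lyz1 (16.1%) were identical to the other gene, and 765 (63.0%) lay within 2 mismatches of it. For Lyz2, 195 of 1267 (15.4%) were identical and 765 (60.4%) lay within 2 mismatches. Only the identical windows carry no mark of their gene. The sources used here do not say how the counting treated reads that match both genes, so part of a count may belong to the other gene.

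The promoters, from RefSeq on GRCm38.p6 (250 bases before to 50 after each start), are shown because both are copies of 1 ancestral sequence in front of genes whose counts differed in opposite directions. Capitals mark the bases that are not aligned to an identical base in the other gene. They are chr10:117292819-117293118 for Lyz1 and chr10:117282223-117282522 for Lyz2, minus strand.
Lyz1: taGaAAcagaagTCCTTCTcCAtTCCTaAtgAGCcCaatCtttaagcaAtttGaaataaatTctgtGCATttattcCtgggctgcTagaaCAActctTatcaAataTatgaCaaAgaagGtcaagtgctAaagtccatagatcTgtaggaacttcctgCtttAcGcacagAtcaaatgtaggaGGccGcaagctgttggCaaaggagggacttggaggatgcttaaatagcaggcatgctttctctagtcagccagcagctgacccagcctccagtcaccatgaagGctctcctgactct
Lyz2: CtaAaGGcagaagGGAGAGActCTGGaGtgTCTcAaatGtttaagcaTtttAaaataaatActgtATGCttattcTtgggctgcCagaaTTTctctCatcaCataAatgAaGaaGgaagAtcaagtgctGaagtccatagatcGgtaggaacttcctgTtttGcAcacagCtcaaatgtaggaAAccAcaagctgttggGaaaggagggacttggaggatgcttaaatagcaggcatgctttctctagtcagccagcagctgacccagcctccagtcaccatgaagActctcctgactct
Of the 300 bases of each, 51 were not identical in the alignment, and only 11 of these fell in the last 180 bases of the Lyz1 sequence. The letters AGGAAGT, a core bound by ETS factors such as PU.1, were found in both promoters 100 bases before the start. They lie on the strand opposite to the one printed, where they appear as acttcct. On either strand they occur in 9.35% of 32851 RefSeq promoters of this length. The letters TTGCNNAA, a form of C/EBP site, were found for Lyz1 209 bases before the start, also on the strand opposite to the printed one. They were not found in the Lyz2 window, against 10.8% of all promoters. TATAAA was found in neither window, against 13.6% of all promoters. The motifs do not overlap each other.

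Total counts ran from 11520348 to 41935183 per library, and the 2 deepest libraries were Experimental 2 and 3. Epidermal keratins marked the tissue as skin in all 10 libraries, with Krt14 between 12950 and 19500 and Krt10 between 2654 and 6158 normalized CPM (read counts scaled to library size, with TMM factors). Leaving out Littermate 2 moved the number of genes called over the whole table from 3 to 343, and leaving out Experimental 6 moved it to 28. With both left out it was 563, 102 higher and 461 lower. Calls that depend on these libraries are given where they occur, and are to be read beside those counts.

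Lyz1, the Paneth cell form, was the scarce member of the pair and was higher in every Experimental mouse than in every Littermate. Its normalized CPM was 17.3, 21.9, 20.1 and 16.5 in Littermates 1 to 4. It was 70.8, 65.5, 76.2, 97.8, 66.1 and 58.5 in Experimental 1 to 6. The groups did not overlap: the lowest Experimental library, number 6, stood 2.67 times above the highest Littermate, number 2. Experimental 4 was the highest of all. The counts behind these values were 212 to 299 reads in Littermates and 756 to 3192 in Experimental libraries. The exact 95% Poisson interval of the lowest library, Littermate 4, was 14.4 to 18.9 CPM, and that of Experimental 6 was 54.9 to 62.2 CPM. These intervals cover counting error only. The Littermate mean was 19.0 ± 2.50 (SD, n = 4) and the Experimental mean 72.5 ± 13.8 (SD, n = 6). The fitted log2 fold change was 1.93 (SE 0.14), or 3.81-fold. Of 10626 other tested genes that averaged 10 CPM or more, none had a larger positive log2 fold change. With scarcer genes included, Lyz1 ranked 7 from the top of all tested genes.

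Lyz2, the lysozyme of macrophages and neutrophils, differed the other way. Its normalized CPM was 379, 529.6, 460.3 and 412 in Littermates 1 to 4 and 269, 217, 251, 201, 225 and 259 in Experimental 1 to 6. Again the groups did not overlap, with the lowest Littermate (number 1) 1.41 times above the highest Experimental library (number 1). Experimental 4, the highest for Lyz1, was the lowest for Lyz2. The Littermate mean was 445 ± 65.5 (SD, n = 4) and the Experimental mean 237 ± 26.7 (SD, n = 6). The fitted log2 fold change was -0.91 (SE 0.10), or 1.88-fold lower. Of the same 10626 genes 4 had a more negative value, and Lyz2 ranked 28 from the bottom of all tested genes. In the edgeR fit 0.0178% of the 16830 genes tested passed an adjusted p of 0.05, with 0.00594% higher and 0.0119% lower in Experimental libraries. The share of tested genes whose Experimental libraries all lay above all Littermates was 0.761%, and all below, 1.35%. Since this contrast chose the pair, nothing is read from these shares.

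**Figure D1:**
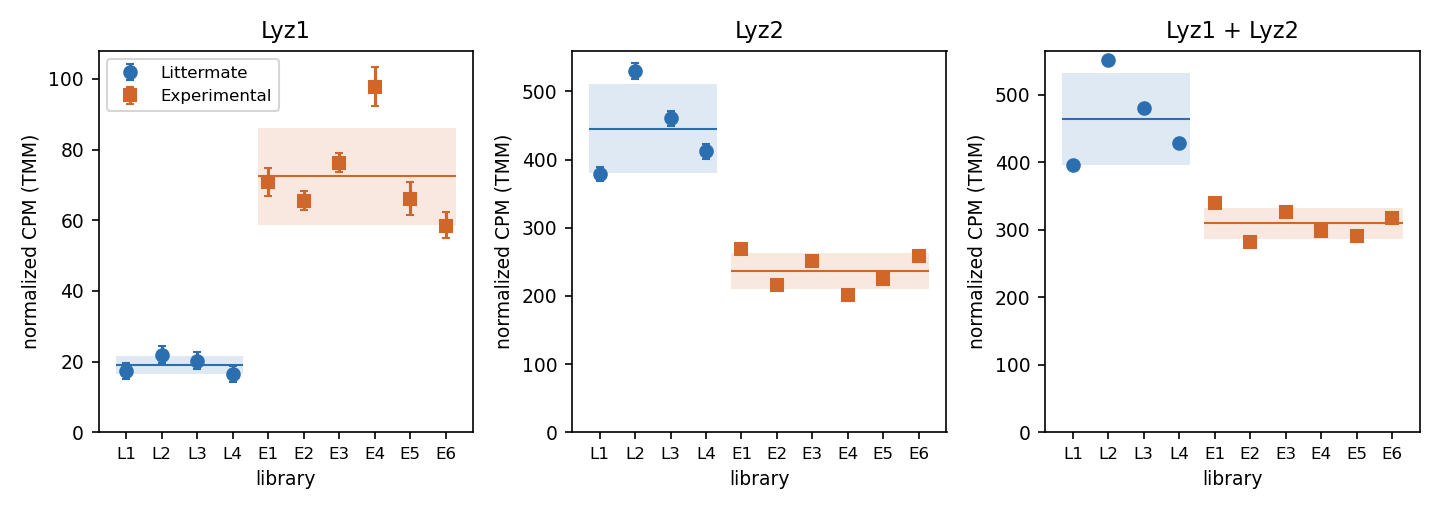
Normalized CPM of Lyz1, Lyz2 and their sum in Littermate (L1 to L4, circles) and Experimental (E1 to E6, squares) libraries, with lines and bands for the group mean and SD and bars for exact 95% Poisson intervals in the first 2 panels. Lyz1 stands at 16.5 to 21.9 CPM in Littermates and 58.5 to 97.8 CPM in Experimental libraries, while Lyz2 and the sum stand lower in all 6 Experimental libraries.

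Per length, Lyz2 remained the more abundant member in all 10 libraries. The deposited RPKM (reads scaled to library size and gene length) was 297 to 419 for Lyz2 and 12.9 to 17.4 for Lyz1 in Littermates. In Experimental libraries it was 162 to 213 for Lyz2 and 46.5 to 79.1 for Lyz1. By RPKM within a library, Lyz2 ranked between 75 and 112 of all genes in Littermates and between 164 and 231 in Experimental mice. Lyz1 ranked between 3351 and 4523 in Littermates and between 523 and 1050 in Experimental mice. The gain in Lyz1 was smaller in reads than the loss in Lyz2: group means differed by 53.5 CPM for Lyz1 and by -208.2 CPM for Lyz2. The summed pair averaged 464 ± 67.9 (SD, n = 4) in Littermate and 309 ± 22.3 CPM (SD, n = 6) in Experimental skin. Littermate sums ran from 396 to 552 and Experimental sums from 282 to 339.8, without overlap.

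The share of Lyz1 among the counts of the pair put the contrast in 1 number per library, free of depth and size factors. In Littermates 1 to 4 it was 4.37%, 3.97%, 4.19% and 3.86%. In Experimental 1 to 6 it was 20.8%, 23.2%, 23.3%, 32.8%, 22.7% and 18.4%. The shares of the 4 Littermates were close together. Their exact 95% binomial (Clopper-Pearson) intervals all overlapped, from 3.36% to 4.40% in Littermate 4 to 3.82% to 4.97% in Littermate 1. Experimental mice were not alike within counting error. Experimental 4, at 31.3% to 34.3%, overlapped no other library, and Experimental 6, at 17.4% to 19.5%, lay below all other Experimental intervals. On the log2 scale of RPKM, Lyz1 over Lyz2 averaged -4.55 in the 4 Littermates (SD 0.08) and -1.72 in the 6 Experimental libraries (SD 0.37), a difference of 2.83. Put the other way, Lyz2 was 21.9 to 24.9 times Lyz1 per length in Littermates and 2.05 to 4.42 times in Experimental mice. What part reads assigned to the wrong gene have in the Littermate share of about 4.10% was not tested.

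**Figure D2:**
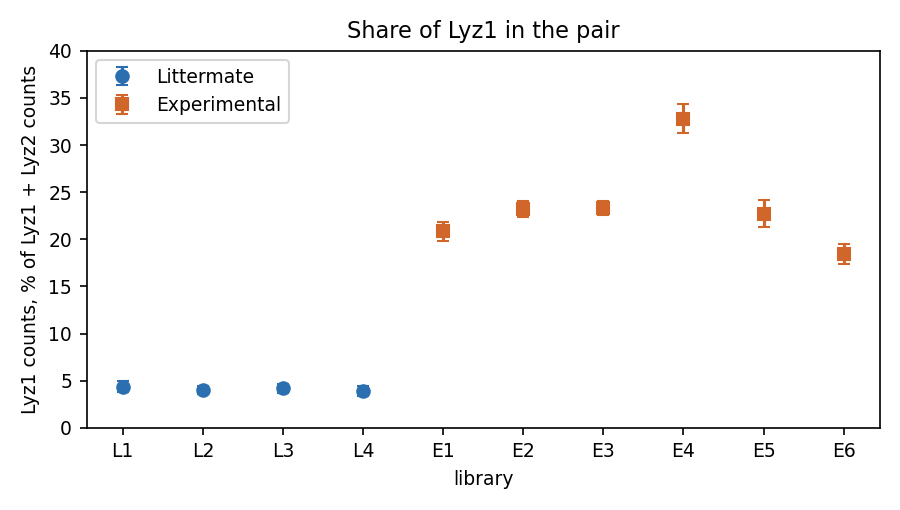
Lyz1 counts as a percent of the counts of Lyz1 and Lyz2 in each library, with exact 95% binomial intervals, for Littermates (L, circles) and Experimental mice (E, squares). Littermates lie between 3.86% and 4.37% and Experimental libraries between 18.4% and 32.8%, with Experimental 4 highest.

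Beside the pair, the other lysozyme-related genes were near the limit of detection. Of 8 listed relatives none passed the filter on low counts. Lyzl4, a lysozyme-like gene, had the most reads, with 86 over all 10 libraries and at most 0.841 CPM. Lyg2, a goose-type lysozyme, had 33 reads. Lalba, the lactalbumin of milk that descends from lysozyme, had 4 reads, Spaca3 had 5, Spaca5 had 3 and Lyzl6 had 2. Lyzl1 and Lyg1 had none, which allows up to 3 reads in a library, or 0.0715 CPM in the deepest and 0.260 CPM in the shallowest. The lysozyme RNA measured in this skin was thus almost all from the pair, which had 67486 reads in all.

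The question of how the pair sits among myeloid cells was addressed with lists of markers from which Lyz1 and Lyz2 were left out. None of the 20 macrophage and monocyte genes passed over all genes, 13 were negative and 7 positive, and their median log2 fold change was -0.14 against -0.00126 for all tested genes. With all libraries kept, Lyz2, at -0.91, stood below all 20, whose lowest was -0.49. At an unadjusted p under 0.05 there were 3 of 20 (15%), 1 higher and 2 lower, against 11.8% of all tested genes (3.65% higher and 8.1% lower). They were Ccr2, a receptor of inflammatory monocytes, at 0.30, Csf1r, the receptor on which macrophages depend, at -0.24, and the complement gene C1qc at -0.21 (edgeR, adjusted p = 0.260, 0.399 and 0.414). Adgre1 (F4/80) stood at 0.17 and the mannose receptor Mrc1, the most abundant of the list, at -0.20 (edgeR, adjusted p = 0.529 and 0.588). Without Littermate 2 and Experimental 6, 2 of the 20 passed: Mertk, a receptor for the uptake of dying cells, at -0.42 and Cd14 at -0.91 (edgeR, adjusted p = 0.0334 and 0.0162). In that setting 563 genes passed over the whole table, 102 higher and 461 lower, so nothing particular to macrophages is read from these 2 calls. Lyz2 then stood at -0.84, so it was no longer below all 20. Summed over the list, Littermates lay at 2649 to 3055 CPM and Experimental libraries at 2116 to 3384, which overlap, and all 20 markers averaged at least 1 CPM. Its part in the Lyz2 difference was not tested.

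Lyz2 was also set against single macrophage genes in each library. Csf1r averaged 316 ± 32.3 in the 4 Littermates and 268 ± 38.7 CPM in the 6 Experimental mice (mean ± SD). Lyz2 over Csf1r, in CPM, ran from 1.14 to 1.79 in Littermates and from 0.794 to 0.976 in Experimental mice. Lyz2 over Adgre1 ran from 4.22 to 5.31 and from 1.89 to 2.47. Neither ratio overlapped between the groups. Over Cd68, a lysosomal protein of macrophages, it ran from 3.30 to 5.98 and from 2.42 to 3.55, which do overlap.

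Neutrophil genes, from the other cells that make lysozyme M, stood lower without a call. Of 16 listed genes 10 could be tested, 8 were negative, the median log2 fold change was -0.41, and none had an unadjusted p under 0.05. The calprotectin subunit S100a9 stood at -0.28 and S100a8 at -0.36, while the G-CSF receptor Csf3r stood at -0.62 and the stefin Stfa2l1 at -1.01 (edgeR, adjusted p = 0.769, 0.719, 0.626 and 0.506). Retnlg was at -0.46 and the decoy receptor Il1r2 at 0.12. Summed over the list, Littermates lay at 416 to 720.3 CPM and Experimental libraries at 317 to 674.5. Much of these sums came from S100a9, S100a8 and Il1r2, which averaged 193, 116 and 85.6 CPM in Littermates. In Experimental libraries they averaged 158, 90.6 and 93.3 CPM. Whole skin does not show which cells made that RNA. Csf3r and Stfa2l1 passed without Littermate 2 and Experimental 6, at -1.22 and -1.68 (edgeR, adjusted p = 0.0165 and 0.0229). They also passed with the replicate number as a block, at -1.23 and -1.74 (edgeR, adjusted p = 0.0428 and 0.0393). Experimental 5 and 6 share their number with no Littermate, so the block fit takes no group difference from them. It is thus no independent second setting. Over all genes 563 passed in the first setting and 67 with the block.

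Among transcription factors of myeloid cells, 8 of 9 tested genes were negative with a median of -0.21, and none passed. At an unadjusted p under 0.05, 4 of 9 were lower, against 8.1% of all tested genes in that direction. Klf4 stood at -0.35, Gfi1, a factor of neutrophil maturation, at -0.71 and Runx1 at -0.21 (edgeR, adjusted p = 0.229, 0.308 and 0.388). Klf4 passed without Littermate 2, at -0.44 (edgeR, adjusted p = 0.0351), and with Experimental 6 left out as well, at -0.42 (edgeR, adjusted p = 0.0420). Gfi1 then passed at the threshold itself, at -0.997 (edgeR, adjusted p = 0.050 after rounding). Klf4 is also a factor of differentiating keratinocytes, so its skin level is not that of myeloid cells alone. Spi1, which encodes PU.1, the master factor of myeloid cells, stood at -0.21 and Cebpa at -0.10 (edgeR, adjusted p = 0.561 and 0.790).

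Dendritic and Langerhans cell genes had a median of 0.01 over 12 tested genes, 6 positive and 6 negative, with no call by edgeR over all 10 libraries. Ccr7, which guides dendritic cells to lymph nodes, stood at 0.66 and Flt3 at 0.40 (edgeR, adjusted p = 0.162 and 0.329), and Ccr7 lay higher in all 6 Experimental libraries than in all Littermates. Cd207 (langerin) stood at 0.34, Epcam at 0.17 and Itgax at -0.08 (edgeR, adjusted p = 0.50, 0.626 and 0.850). Cd207 passed without Littermate 2 and Experimental 6, at 0.59 (edgeR, adjusted p = 0.0466), and Ccr7 passed with DESeq2, at 0.67 (adjusted p = 0.0453).

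Epithelial genes were examined because Lyz1 is known from a secretory epithelium. The 8 basal keratinocyte genes had a median of 0.01, with Krt14 at 0.00 and Krt5 at 0.03, and Itgb4, an integrin of hemidesmosomes, at -0.46 (edgeR, adjusted p = 0.221 for Itgb4). Itgb4 passed without Littermate 2, at -0.59 (edgeR, adjusted p = 0.0190). Lamb3 stood at -0.09, Col17a1 at -0.07 and Trp63 at 0.09. The 11 genes of differentiated keratinocytes had a median of 0.03, with the cornified envelope protein Lor at -0.57 and the protease Klk7 at 0.27 (edgeR, adjusted p = 0.392 and 0.419). Krt1 stood at -0.01, Krt2 at -0.15, Dsg1a at 0.08 and Tgm3 at 0.08. With all 10 libraries none of either list passed.

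In the hair follicle list 1 of 9 tested genes passed, 6 were positive and the median was 0.12. That gene was Sox9, a factor that follicle stem cells and Paneth cells both need. It averaged 27.9 ± 1.46 in the 4 Littermates and 16.85 ± 1.57 CPM in the 6 Experimental mice (mean ± SD), and it fell by 0.73 on the log2 scale (edgeR, adjusted p = 0.0033). It was 1 of the 3 genes called in these data, so its place here was known when the list was written. With the Y-linked level as a covariate (summed CPM 229 to 301 in Littermates and 282 to 339.5 in Experimental mice) no gene of the lists passed. Every library held Y-linked RNA at these levels, so this covariate does not separate male from female samples. S100a3 stood at 1.11, Msx2 at 0.46, Lgr6 at -0.26 and the duct keratin Krt79 at 0.02 (edgeR, adjusted p = 0.188, 0.320, 0.508 and 0.990). S100a3 passed with DESeq2, at 1.14 (adjusted p = 0.0191). The 10 sebaceous gland genes had a median of 0.07 and no call, with Fasn at -0.76, Awat2 at 0.54, Mc5r at 0.34, Soat1 at 0.26 and Scd1 at -0.10.

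Genes that define glands and Paneth cells were mostly scarce. Of 20 genes, 6 passed the filter on low counts and 9 had at most 3 reads over all libraries. Those 9 included the Paneth cell genes Defa24, Mmp7, Itln1, Ang4 and Pla2g2a and the salivary genes Pip, Dcpp1, Smr3a and Prol1. Summed over the list, Littermates lay at 30.5 to 56.6 CPM and Experimental libraries at 38.1 to 49.5. Of the tested genes Reg3g, an antibacterial lectin, stood at 0.68, the water channel Aqp5 at -0.49, Krt7 at 0.25, Bhlha15 at -0.19, Lcn2 at -0.11 and Amy1 at -0.07. Lyz1 thus reached 58.5 to 97.8 CPM in Experimental skin, while Defa24, Mmp7, Itln1, Ang4 and Pla2g2a had at most 3 reads each over all libraries. Reg3g, of the same list, averaged 2.33 CPM in Littermates and 3.70 CPM in Experimental libraries.

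**Figure D3:**
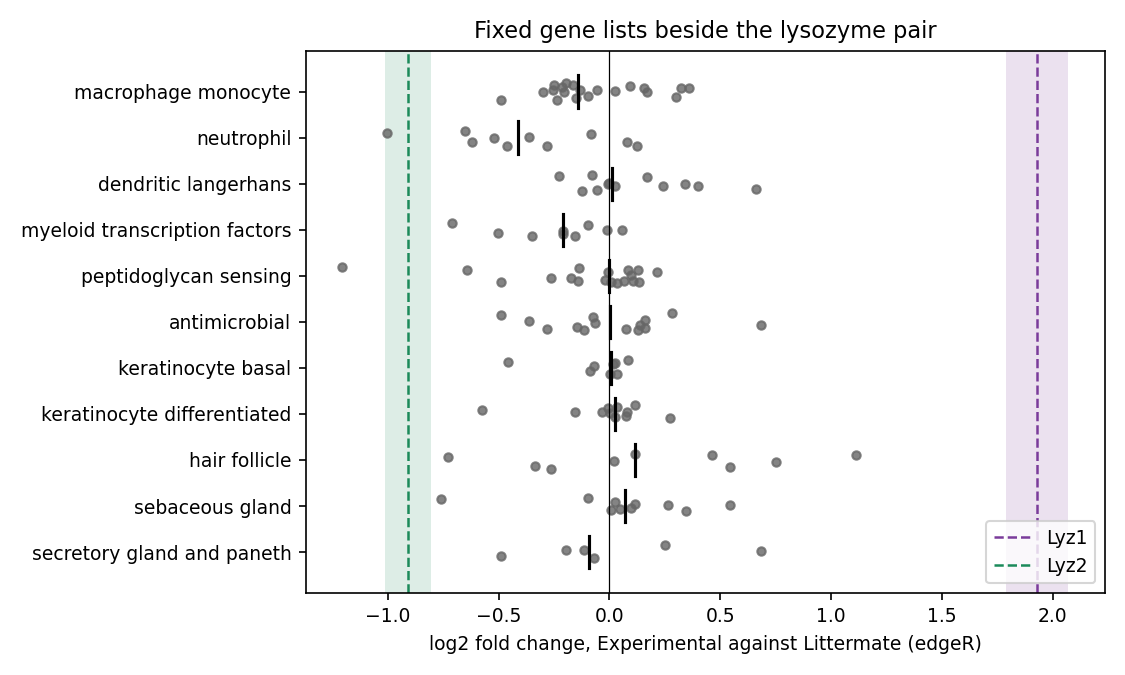
Log2 fold changes of the tested genes of each fixed list (grey points, black bar for the median), with Lyz1 and Lyz2 as dashed lines and bands of 1 SE. The list medians lie between -0.41 and 0.12, with Lyz2 at -0.91 and Lyz1 at 1.93.

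Genes that act with or after lysozyme did not pass. Over 18 genes of peptidoglycan sensing and uptake, 9 were positive and 9 negative, the median was 0.00, and none had an unadjusted p under 0.05. Nod1, a receptor of wall fragments, stood at -0.14 and the recognition protein Pglyrp4 at 0.22 (edgeR, adjusted p = 0.521 and 0.478). Nlrp3 stood at -0.64, the co-receptor Cd14 at -0.49 and the transporter Slc15a4 at -0.02 (edgeR, adjusted p = 0.549, 0.573 and 0.939). The transporter Slc15a2, the lowest of the list, stood at -1.21, with means of 16.0 ± 8.11 in the 4 Littermates and 7.08 ± 6.33 CPM in the 6 Experimental mice (± SD), and did not pass (edgeR, adjusted p = 0.617). It was named after its values were seen. Cd14 passed without Littermate 2 and Experimental 6, at -0.91 (edgeR, adjusted p = 0.0162).

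Other antimicrobial genes of skin were level as a list, with a median of 0.00 over 14 tested genes, 7 in each direction. The defensin Defb1 stood at 0.16, the ribonucleases Ang and Rnase4 at -0.14 and -0.07, and the psoriasin gene S100a7a at -0.49 (edgeR, adjusted p = 0.636, 0.602, 0.758 and 0.462). None of the 14 had an unadjusted p under 0.05 over all 10 libraries. The defensin Defb4 passed without Littermate 2 and Experimental 6, at 0.73 (edgeR, adjusted p = 0.0312).

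The genes around the pair on chromosome 10 lay near 0. Of 35 other genes within 1 Mb in the files 17 were tested, none passed, 8 were positive and 9 negative, and their log2 fold changes ran from -0.13 to 0.34. Their median was -0.01, and 2 of 17 had an unadjusted p under 0.05 (11.8%), the same share as over all tested genes. Those were Rab3ip, an exchange factor for Rab proteins, at 0.34 and Cnot2, a subunit of the deadenylase complex, at 0.19 (edgeR, adjusted p = 0.283 for both). Rab3ip passed without Littermate 2 and Experimental 6, at 0.46 (edgeR, adjusted p = 0.0372). Cpsf6, a cleavage and polyadenylation factor, stood at 0.09, Frs2 at -0.13, Nup107 at 0.13 and the chaperonin Cct2 at 0.10 (edgeR, adjusted p = 0.604, 0.60, 0.598 and 0.706). Lyz2 and Lyz1 stood at -0.91 and 1.93 between them.

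Within 5 Mb, 53 other genes were tested and none passed, with 8 (15.1%) at an unadjusted p under 0.05. The lowest was Hmga2, a chromatin protein of growing tissue, 3.13 Mb from the middle of the pair, with means of 3.02 ± 0.38 in the 4 Littermates and 0.997 ± 0.56 CPM in the 6 Experimental mice (± SD). Its log2 fold change was -1.65 (edgeR, adjusted p = 0.0834), and it was named after its values were seen. Hmga2 passed without Littermate 2, at -1.57 (edgeR, adjusted p = 0.0389), without Experimental 1, at -1.91 (0.0390), and without Experimental 6, at -1.83 (0.0340), and in 2 other alternatives. Srgap1 passed without Littermate 2, at -0.50 (edgeR, adjusted p = 0.0405). With Experimental 6 left out as well, Srgap1 passed at -0.45 and Tbc1d15 at -0.34 (edgeR, adjusted p = 0.0429 and 0.0466).

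**Figure D4:**
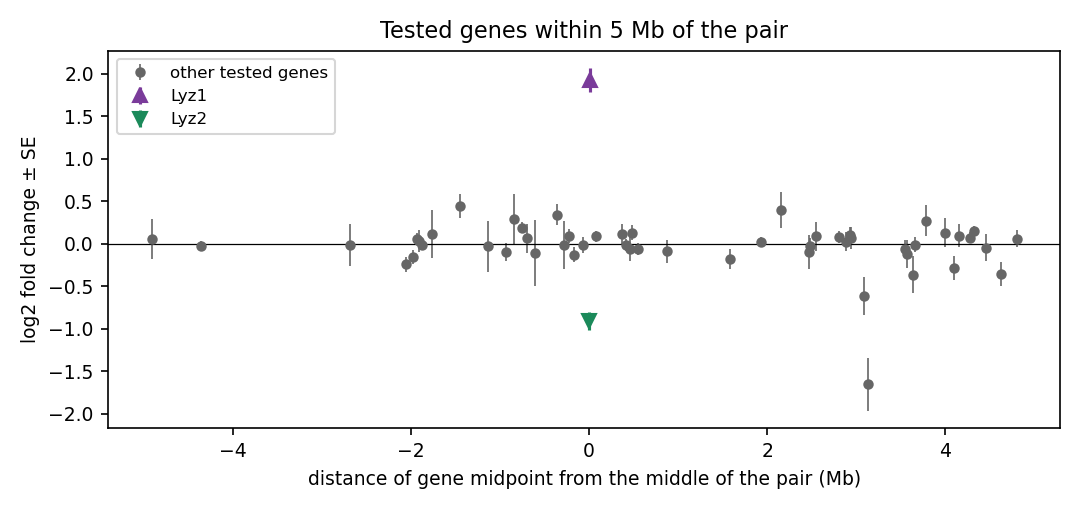
Log2 fold change with SE of every tested gene within 5 Mb of the pair, by distance of the gene's midpoint from the middle of the pair in Mb. Lyz1 (upward triangle, 1.93) and Lyz2 (downward triangle, -0.91) lie side by side at 0, among genes within 1 Mb that run from -0.13 to 0.34.

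The spread of the pair within a group entered the test that chose it, so it too is a description. Deviations from group means gave within-group SDs on the log2 scale of 0.232 for Lyz1 and 0.183 for Lyz2. Among the 500 genes closest in level, 88.4% had a smaller SD than Lyz1 (median of the 500, 0.137) and 74.2% a smaller SD than Lyz2 (median 0.129). Both genes therefore varied more between mice of a group than most genes of their level.

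The 2 groups form separate clusters for both genes, so correlations were computed within the 6 Experimental libraries alone, and the 4 Littermates are too few. The family held 15 relations, Lyz1 with Lyz2 and each of them with the mean log2 CPM of 7 lists. None passed an exact permutation test over 720 pairings, two-sided, raw or with Benjamini-Hochberg adjustment. The smallest p that 6 libraries allow is 0.00278. For Lyz2 and the macrophage score, r was 0.78 (exact permutation p = 0.0597, adjusted p = 0.583) and rho 0.77 (p = 0.103, adjusted p = 0.408). Without the 2 libraries farthest from the median score r was 0.70. For Lyz1 and the macrophage score r was -0.77 (exact permutation p = 0.0847, adjusted p = 0.583) and rho -0.71 (p = 0.136, adjusted p = 0.408), and without the 2 farthest libraries r was 0.16, so that relation rests on them. These were Experimental 4, with the lowest score and the highest Lyz1, and Experimental 6, with the highest score and the lowest Lyz1.

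Lyz1 against Lyz2 gave r = -0.55 (exact permutation p = 0.263, adjusted p = 0.604) and rho = -0.31 (p = 0.564, adjusted p = 0.769), and r = -0.08 without the 2 farthest libraries. With the neutrophil score r was -0.72 for Lyz1 and 0.49 for Lyz2 (exact permutation p = 0.135 and 0.346, adjusted p = 0.583 and 0.604), with rho of -0.71 and 0.60 (p = 0.136 and 0.242). With the score of differentiated keratinocytes r was 0.62 for Lyz1 and -0.25 for Lyz2 (exact permutation p = 0.182 and 0.643, adjusted p = 0.583 and 0.742), with rho of 0.77 and -0.43 (p = 0.103 and 0.419). Without the 2 farthest libraries those r were -0.73, 0.87, 0.67 and -0.65. With the dendritic, basal keratinocyte, hair follicle and sebaceous scores r lay between -0.47 and 0.63 for Lyz1 and between -0.22 and 0.38 for Lyz2. Over the family, 4 of 15 coefficients changed sign without their 2 farthest libraries.

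**Figure D5:**
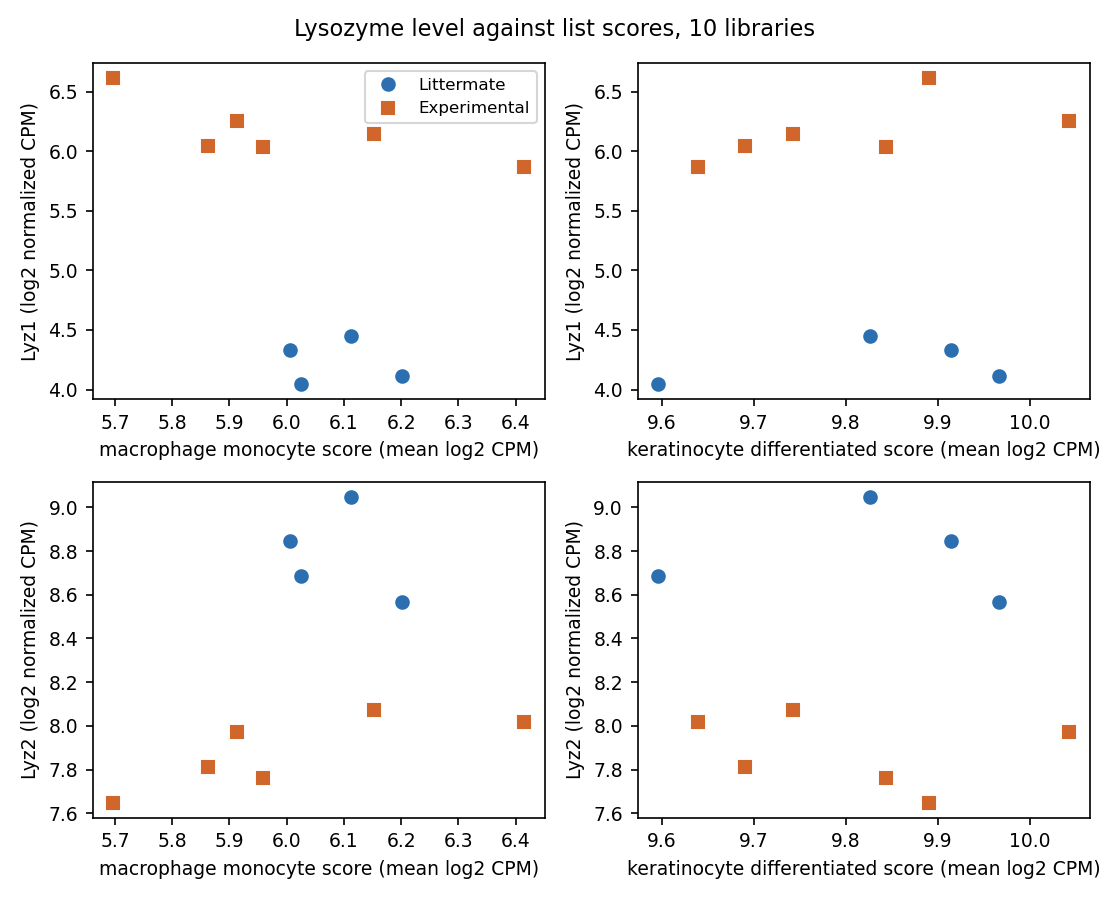
Log2 normalized CPM of Lyz1 (top) and Lyz2 (bottom) against the mean log2 CPM of macrophage and monocyte genes (left) and of differentiated keratinocyte genes (right), 1 point per library, circles for Littermates and squares for Experimental mice. The groups are apart on the vertical axes and overlap on the horizontal ones, and within Experimental mice r with the macrophage score is -0.77 for Lyz1 and 0.78 for Lyz2, neither past its test.

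The genes most like each member were ranked by the correlation of deviations from group means over all 10 libraries, among 10404 named genes that averaged 10 CPM or more. This is a description with no test, since with 10 libraries high values are found for some of so many genes. For Lyz1 the 5 highest were Cfap57 (r = 0.957), Fjx1 (0.955), the fatty acid elongase Elovl1 (0.933), Ubl3 (0.924) and the ubiquitin-conjugating enzyme Ube2n (0.917). For Lyz2 they were Uhrf2 (r = 0.958), Tifa (0.956), Coa3 (0.936), the heme synthesis enzyme Urod (0.917) and the peptidase Mme (0.905). None of these 10 genes differed between the groups by the test, with log2 fold changes from -0.22 to 0.14. Neither set held a gene of the fixed myeloid or epithelial lists.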

How the data were processed

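RNA of whole ear skin from 10 mice was depleted of ribosomal RNA and sequenced in single reads of 50 bases, per the labels' protocols, which describe no strand marking. The submitters' processing notes name mm10, featureCounts 1.4.5, Subread and STAR 2.0.4b, with no order. The sources used here do not give the annotation release or the setting for reads with several matches. Per the file headers, the authors deposited read counts per gene, CPM and RPKM. The deposited CPM is the count scaled to the library's total, and the deposited RPKM is also scaled to exonic length.

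Symbols were matched to 97.3% of gene identifiers. Counts were fitted with edgeR 4.0.16 (TMM factors from 0.984 to 1.02, filterByExpr, robust quasi-likelihood test, two-sided, Benjamini-Hochberg adjustment over 16830 genes), with group as the only term. The common coefficient of variation was 12.8%. On simulated counts of this comparison over 16645 genes, edgeR recovered all 108 genes altered 2-fold and all 92 altered 4-fold, with 11 false among 211 calls. Every simulated gene had the same coefficient, 12.8%, no library deviated as a whole, and only genes above a minimum level were altered. Recovery of scarcer genes, or where genes or libraries vary more, was therefore not measured. No 2 libraries of a group agreed within sampling noise (chi-square per degree of freedom at least 7.99). That the samples are separate mice follows the series text.

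Scores are mean log2 CPM (prior count 2) of list genes averaging 1 CPM or more. The named genes are the pair, its relatives, the 4 genes of lowest p and the 2 most abundant of each list and of the genes within 1 Mb, and the 5 genes most like each member. Spi1, Cd68, Krt10, Slc15a2, Hmga2, Mertk, Defb4, Srgap1, Tbc1d15 and untested gland genes were named outside this rule, after their values were seen. The results of 1 gene that the rule names are not reported here. The members and lists were chosen with earlier results of these data known. Of 168 list entries 1 matched no symbol. Alternatives were other size factors and filters, DESeq2 1.42.0, the replicate number as a block, the Y-linked level as a covariate, and libraries left out. Leaving out the 2 deepest libraries was chosen after seeing the data.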

Additional observations from a re-analysis of the deposited data

Results flagged for a closer look

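Of 24 combinations of a measure and a group, 1 held a library far from the others, and chance gives about 1 in 20. The score of basal keratinocyte genes was 9.23 (mean log2 CPM) in Littermate 2, against 9.49 in each of the other 3 Littermates. In that library Lyz1 and Lyz2 were the highest of the Littermates, at 21.9 and 529.6 CPM, and without it their log2 fold changes were 2.01 and -0.82. No library stood apart by the same measure for Lyz1, Lyz2, their sum or their ratio.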

How the results depend on the processing

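The log2 fold change of Lyz1 stayed between 1.84 and 2.07 over 19 alternatives and that of Lyz2 between -0.99 and -0.82, each within 1 within-group SD of the reported value. The log2 difference of their ratio stayed between 2.69 and 2.95 over 14 alternatives. No correlation passed in any of 8 alternatives. The count of 3 genes called over all genes (1 higher, 2 lower) ranged from 3 to 343 with each library left out. Leaving out Littermate 2 gave 343, Experimental 6 gave 28, Littermate 3 gave 8, and omitting Littermate 2 together with Experimental 6 gave 563. It was 78 with no filter on low counts (7 higher, 71 lower) and 233 with DESeq2 (34 higher, 199 lower). Of 174 tested genes of the lists and within 5 Mb, 1 was called. With each library left out this ranged from 1 to 6, with 6 without Littermate 2 and 2 without Experimental 1 or 6. It was 15 with Littermate 2 and Experimental 6 both omitted, 3 with no filter, 4 with DESeq2 and 0 with the Y-linked level as a covariate, where Sox9 lost its call. The cause was not tested.

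Same-numbered mice did not deviate together (correlations from -0.02 to 0.09). With the replicate block, 67 genes and 3 list genes were called, Lyz1 stood at 2.02, Lyz2 at -0.92 and the ratio difference, over the 4 shared numbers, at 2.95. Experimental 5 and 6 have no Littermate of their number, so the block fit takes no group difference from them. Depth limits Lyz1 most in Littermates, where 212 to 299 reads lie behind each value.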
